A study of Mus musculus with 9 samples.

Results

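Epcam and 9 claudin genes (Cldn1, Cldn3, Cldn4, Cldn5, Cldn6, Cldn7, Cldn8, Cldn12 and Cldn23) were followed across sorted medullary thymic epithelial cells that differed in C2TA. The members were taken by gene symbol, and each of the 10 genes has 1 probe set, out of 19593 named genes on the array. The symbols of the table named 9 of them, and Epcam stands there under its older symbol Tacstd1 and was matched by accession alone. That rule uses no measured value, though the members were chosen with earlier results of these data known.

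Claudins are small membrane proteins with 4 transmembrane passes that join neighbouring epithelial cells in tight junctions and set which ions and solutes pass between the cells. Some of them seal the junction and others form channels in it, and most bind the scaffold proteins such as Tjp1 inside the cell. Epcam is an adhesion molecule of epithelial cells that binds claudins, Cldn7 above all, and keeps them from being degraded. In the thymus Epcam is the usual marker for sorting epithelial cells, and Cldn3 and Cldn4 mark the lineage of the medulla from which cells expressing Aire, the regulator of tissue-restricted antigens, arise.

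The samples were CD80+ medullary thymic epithelial cells from thymi of female Balb/c mice aged 4-6 weeks, on 9 expression arrays. The groups of 3 arrays were C2TA knockdown (arrays 4 to 6), C2TA knock-out (arrays 7 to 9, called knockout from here on) and C2TA wild type (arrays 1 to 3). C2TA, the product of Ciita, switches on the MHC class II genes, and the study addressed how medullary epithelium on its own acts on CD4 T cell tolerance. Samples of a group are labelled as biological replicates, and the labels give neither the mice behind each one nor the means of silencing. In the published mouse line of this name the silencing RNA sits in an Aire transgene, which is background knowledge and is not recorded in the labels.

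Promoter sequences are shown for Cldn1 and Cldn3, whose group means lay farther apart than those of the other members, for Cldn4, the neighbour of Cldn3, and for Epcam. Each runs 5′ to 3′ on the gene's own strand over 300 bases, 250 before the start site and 50 after it, from RefSeq on build GRCm38.p6. Capitals mark GC boxes (GGGCGG or CCGCCC, the core of Sp1 sites) and E-boxes of the letters CAGGTG or CACCTG, the form that Snail and Zeb repressors bind. The windows are chr16:26371790-26372089 on the minus strand for Cldn1, chr5:134985964-134986263 on the plus strand for Cldn3, chr5:134946885-134947184 on the minus strand for Cldn4 and chr17:87635729-87636028 on the plus strand for Epcam.
Cldn1: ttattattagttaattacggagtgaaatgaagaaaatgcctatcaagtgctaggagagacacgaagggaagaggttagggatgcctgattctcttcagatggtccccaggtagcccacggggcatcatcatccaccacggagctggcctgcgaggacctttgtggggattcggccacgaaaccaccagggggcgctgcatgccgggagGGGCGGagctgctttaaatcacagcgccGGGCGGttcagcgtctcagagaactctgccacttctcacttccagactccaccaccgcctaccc
Cldn3: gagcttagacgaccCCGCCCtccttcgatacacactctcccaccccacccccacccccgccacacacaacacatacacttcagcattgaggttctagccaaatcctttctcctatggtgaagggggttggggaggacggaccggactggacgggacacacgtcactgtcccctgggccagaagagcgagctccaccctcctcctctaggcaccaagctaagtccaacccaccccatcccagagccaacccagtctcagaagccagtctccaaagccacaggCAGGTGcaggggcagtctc
Cldn4: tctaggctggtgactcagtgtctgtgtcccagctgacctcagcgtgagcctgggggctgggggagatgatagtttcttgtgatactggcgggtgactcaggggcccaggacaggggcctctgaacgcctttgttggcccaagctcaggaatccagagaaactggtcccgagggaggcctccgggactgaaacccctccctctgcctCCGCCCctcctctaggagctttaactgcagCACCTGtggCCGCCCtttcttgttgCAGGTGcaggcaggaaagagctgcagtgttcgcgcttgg
Epcam: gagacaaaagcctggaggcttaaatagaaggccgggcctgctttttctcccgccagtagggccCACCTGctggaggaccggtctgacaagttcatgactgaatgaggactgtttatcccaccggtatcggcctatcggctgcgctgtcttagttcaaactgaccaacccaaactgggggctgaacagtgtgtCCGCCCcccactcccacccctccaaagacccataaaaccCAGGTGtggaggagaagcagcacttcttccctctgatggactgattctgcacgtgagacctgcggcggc

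RefSeq promoters were matched for 8 of the 10 members, with 11 windows in all, and those of Cldn8 and Cldn23 are not shown. Searched on both strands, the GC box occurred in 9 of the 11 windows and in at least 1 window of all 8 members, and it occurs in 35.7% of all 32851 mouse promoters of this length. The E-box occurred in 5 of the 8 members (Cldn3, Cldn4, Cldn6, Cldn7 and Epcam) and occurs in 20.2% of all promoters. A CCAAT box (CCAAT or ATTGG) occurred in Cldn5 and Cldn12 and in 37.4% of all promoters, and a TATA box (TATAAA or TTTATA) occurred in 0 of the 8 members and in 13.6% of all. The shares of all promoters count single windows, while the counts of members take a match in any window of the member. Windows 2 and 3 of Cldn12 overlap and hold the same GC box, at -13 and -73 from their start sites. No matches of different motifs overlapped. In Cldn4 the window holds 2 GC boxes, first base at -44 and -5 from the start site, and 2 E-boxes, at -14 and 12. The Cldn3 window holds 1 GC box at -236 and 1 E-box at 32. In Cldn1 both marked sites are GC boxes, at -42 and -14, and in Epcam the GC box lies at -58 and the E-boxes at -187 and -19. The 4 windows have a GC content of 56.0% for Cldn1, 60.7% for Cldn3, 61.0% for Cldn4 and 57.0% for Epcam, beside a median of 52.7% over all promoters. These matches describe the letters of the windows and are not sites of binding.

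All levels are log2 values made with RMA, a method that subtracts background, brings the arrays to a common scale and joins the probes of each set. A difference of 1 on this scale is a 2-fold difference. Levels of different probe sets were not set against each other, except in sums over marker lists and in cuts on the mean level. Array medians were alike, at 4.48 to 4.54. The interquartile range of the values was 2.20 on wild type 1 and 2.37 on knockout 7, against 2.53 to 2.80 on the remaining arrays. Some results on the members are also given without 1 or both of these arrays. As checks of the labels, Ciita read 5.44, 4.94 and 5.50 on the knockdown arrays, 5.96, 6.16 and 6.11 on the knockout arrays and 6.37, 6.55 and 6.28 on the wild-type arrays, so that the knockdown arrays were the lowest. Whether the Ciita probes lie in the deleted part is unknown, so they do not check the knockout arrays. The class II chain gene H2-Aa read 9.06 to 9.30 in the knockdown, 5.88 to 6.29 in the knockout and 10.12 to 10.99 in wild type. Aire, which marks the mature cells of the medulla, read 11.25 to 11.50 in the knockdown, 9.71 to 9.86 in the knockout and 9.60 to 10.04 in wild type. It was 1.54 (SE 0.14) higher in the knockdown than in wild type, with a limma adjusted p of 0.0036. The part of an Aire transgene in this difference was not tested. All 10 markers of mature medullary cells were measured, of which Aire alone passed the test, in knockdown against wild type and against knockout. The others mostly lay the other way: in knockdown against wild type 8 of the 10 had a lower mean, where 52.4% of all genes had a higher one. Of the 10, 3 were lower without overlap, where 3.46% of all genes were. The median of the 10 was -0.30, and the chemokine gene Ccl22 differed by -1.27 (SE 0.25, limma adjusted p of 0.243).

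None of the 10 genes passed the test in any comparison. In knockdown against wild type 0 of 10 passed a Benjamini-Hochberg adjusted limma p of 0.05, where 0.0664% of all genes passed, and the smallest adjusted p was 0.839. In knockout against wild type 0 of 10 passed, where 0.0459% of all genes did, and between knockdown and knockout 0 of 10 passed, where 0.0408% did, with a smallest adjusted p of 0.698. Before adjustment 2 of 10 had a limma p under 0.05 for knockdown against wild type (5.24% of all genes), 0 of 10 for knockout against wild type (3.34%) and 1 of 10 between knockdown and knockout (5.04%). The 2 were Cldn3 and Cldn12, and the 1 was Cldn1. A higher mean was found for 4 of 10 in knockdown against wild type (52.4% of all genes), for 4 of 10 in knockout against wild type (51.8%) and for 7 of 10 between knockdown and knockout (50.1%). The median log2 difference of the members was -0.02, -0.08 and 0.09 in these comparisons, beside 0.01, 0.01 and 0.00 over all genes. The 3 comparisons share their arrays, so the same array can move more than 1 of them.

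**Figure D1:**
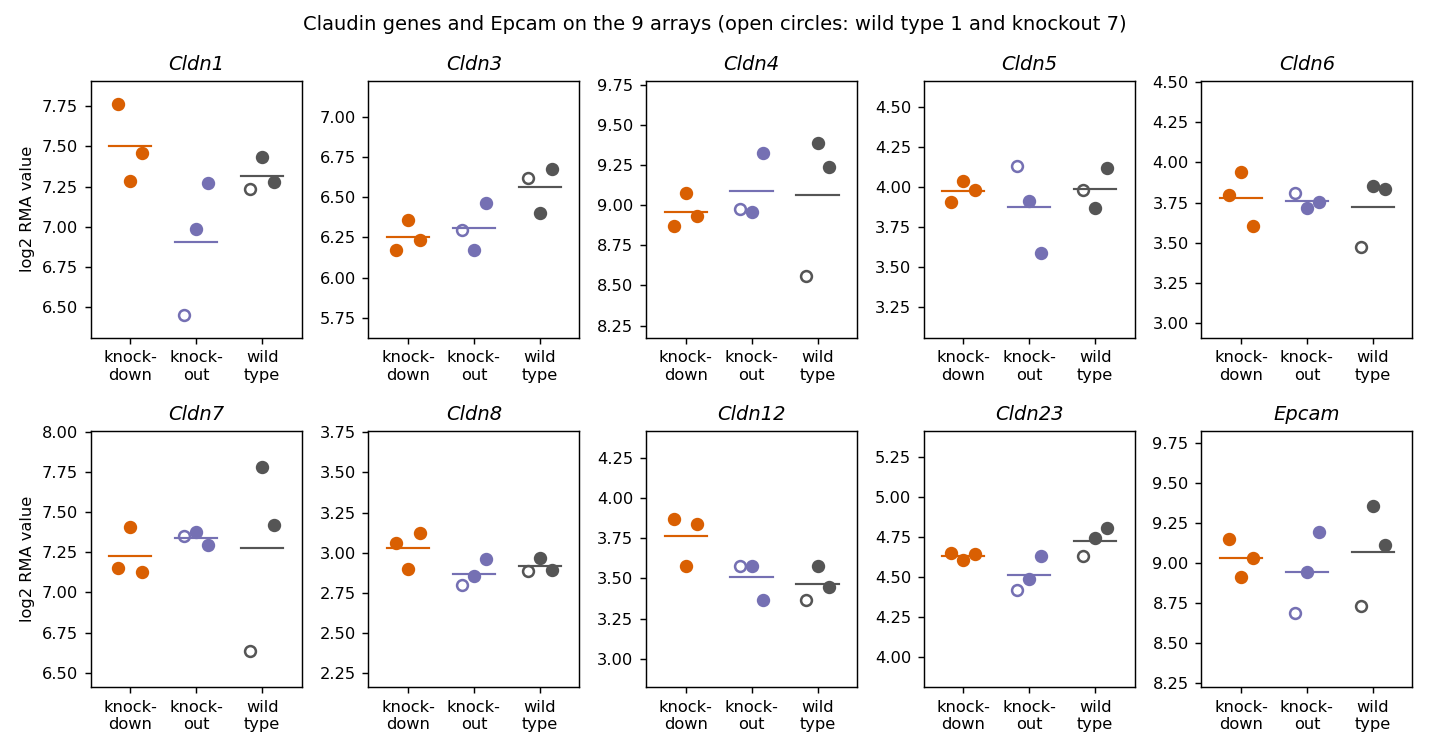
Log2 RMA value (vertical axis, 1 panel per gene, each spanning the same number of log2 units) of the 9 claudin genes and Epcam on each of the 9 arrays, with knockdown, knockout and wild type from left to right. Each point is 1 array, the bar is the group mean, and open circles are wild type 1 and knockout 7; wild type 1 lies well below the other wild-type arrays for Cldn4, Cldn6, Cldn7 and Epcam.

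Cldn3 was the member with the smallest p in knockdown against wild type. This claudin and Cldn4 are the receptors of the enterotoxin of Clostridium perfringens and occur together in many simple epithelia. Its log2 level was 6.17, 6.36 and 6.23 on the knockdown arrays, 6.29, 6.17 and 6.46 on the knockout arrays, and 6.62, 6.40 and 6.68 on the wild-type arrays. All 3 knockdown arrays lay below all 3 wild-type arrays, and the knockout arrays overlapped both other groups. The mean was 6.25 ± 0.09 in the knockdown, 6.31 ± 0.15 in the knockout and 6.57 ± 0.15 in wild type (SD, n = 3 each). The difference of knockdown and wild type was -0.31 (SE 0.12, 95% interval -0.59 to -0.04), 1.24-fold, with a limma p of 0.029 before adjustment and 0.839 after it. The knockout differed from wild type by -0.26 (95% interval -0.53 to 0.02), and knockdown and knockout differed by -0.06 (95% interval -0.33 to 0.22). Without wild type 1 the first of these values was -0.29 and the second -0.23. Cldn3 was the only member whose arrays did not overlap in knockdown against wild type, a pattern that 8.25% of all genes showed and 3.46% in this direction. In knockout against wild type 0 of 10 members lacked overlap, where 4.83% of all genes did.

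Cldn4, the other claudin of the Aire-expressing lineage, had a log2 level of 8.87, 9.07 and 8.93 in the knockdown, 8.98, 8.96 and 9.33 in the knockout, and 8.56, 9.39 and 9.24 in wild type. Wild type held both the lowest and the highest of the 9 values, and the groups overlapped. The means were 8.96 ± 0.10 in the knockdown, 9.09 ± 0.21 in the knockout and 9.06 ± 0.44 in wild type (SD, n = 3 each). The 95% interval of the difference of knockdown and wild type ran from -0.57 to 0.36 around -0.10, so a level up to 1.48-fold lower or 1.28-fold higher lies within it. Knockout and wild type differed by 0.02 (95% interval -0.44 to 0.49). These values turn on wild type 1 and wild type 2. Without wild type 1, the difference from wild type was -0.36 for the knockdown, with an unadjusted limma p of 0.028 and an adjusted p of 0.509. For the knockout it was -0.23, the opposite direction of that with all arrays. Without wild type 2 the difference was 0.06 for the knockdown, opposite to that with all arrays, and 0.19 for the knockout. Aire was higher in the knockdown, and the part of an Aire transgene in this value was not tested. Cldn3 and Cldn4 had lower means there than in wild type, and the direction of Cldn4 turned without wild type 2.

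Cldn7, the claudin that binds Epcam most strongly, followed the same arrays. It read 7.16, 7.41 and 7.13 in the knockdown, 7.35, 7.38 and 7.30 in the knockout, and 6.63, 7.78 and 7.42 in wild type. The 3 knockout arrays lay close together, and the wild-type arrays again held the lowest and the highest value. The group means of 7.23 ± 0.16 in the knockdown, 7.34 ± 0.04 in the knockout and 7.28 ± 0.59 in wild type differed by less than the spread of the wild-type arrays. Knockdown and wild type differed by -0.05 (SE 0.24) and knockout and wild type by 0.06. Leaving out wild type 1 gave -0.37 for the knockdown, with an unadjusted limma p of 0.023 and an adjusted p of 0.469, and -0.26 for the knockout. Leaving out wild type 2 gave the opposite direction, at 0.20 for the knockdown and 0.31 for the knockout.

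Epcam, measured by the probe set listed as Tacstd1, read 9.15, 8.92 and 9.03 in the knockdown, 8.69, 8.94 and 9.19 in the knockout, and 8.73, 9.36 and 9.11 in wild type. The lowest 2 values were those of knockout 7 and wild type 1, and the groups overlapped throughout. Its mean was 9.03 ± 0.12 in the knockdown, 8.94 ± 0.25 in the knockout and 9.07 ± 0.31 in wild type (SD, n = 3 each). The difference of knockdown and wild type was -0.04 (95% interval -0.44 to 0.37), which holds levels from 1.35-fold lower to 1.29-fold higher. Knockout and wild type differed by -0.13 (95% interval -0.53 to 0.27), and knockdown and knockout by 0.09 (95% interval -0.31 to 0.49). Without wild type 1 the knockdown differed from wild type by -0.20 and the knockout by -0.30. Without wild type 2 these differences were 0.11 and 0.02.

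Cldn1 showed the largest difference among the members, between knockdown and knockout. This claudin seals the tight junctions of the epidermis, and mice without it lose water through the skin. It read 7.76, 7.28 and 7.46 in the knockdown, 6.45, 6.99 and 7.27 in the knockout, and 7.23, 7.43 and 7.28 in wild type. Every knockdown array lay above every knockout array, with knockdown 5 just above knockout 9, and the wild-type arrays overlapped both. The means were 7.50 ± 0.24 in the knockdown, 6.90 ± 0.42 in the knockout and 7.32 ± 0.10 in wild type (SD, n = 3 each). Knockdown and knockout differed by 0.60 (SE 0.20, 95% interval 0.14 to 1.06), 1.52-fold, with a limma p of 0.016 before adjustment and 0.698 after it. Cldn1 was the only member without overlap in this comparison, as were 9.60% of all genes. The value was 0.37 without knockout 7, the lowest array for this gene. The knockdown differed from wild type by 0.19 (95% interval -0.27 to 0.65) and the knockout by -0.41 (95% interval -0.87 to 0.05), and the second value was -0.19 without knockout 7.

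Markers of the cornified epidermis had higher means in these knockdown arrays. Of 9 measured all 9 averaged higher in the knockdown than in the knockout (50.1% of all genes) and 8 did so without overlap (5.38% of all genes), with 1 past the threshold, and their summed linear level was 3307 to 3828 in the knockdown, 1901 to 2399 in the knockout and 1735 to 2310 in wild type. Krt1, a keratin of the suprabasal epidermis, passed the test in knockdown against wild type (1.77, SE 0.17) and against knockout (1.52), and Krt79 passed against wild type. Thymocyte markers lay highest in the knockout, with 15 of 18 measured and a summed level of 434 to 536 in the knockdown, 455 to 965 in the knockout and 451 to 528 in wild type. The sums of knockout 8 and 9 were the high ones, at 965 and 810, and knockout 7, which had the lowest Cldn1, was at 455. None of the thymocyte markers passed the test in any comparison. In sorted cells measured in bulk, fewer cells of a type and less RNA per cell cannot be told apart. The part of these markers in the Cldn1 values was not tested.

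Cldn12 differed in the other direction from Cldn3. It lacks the tail by which most claudins bind the scaffold proteins. Its log2 level was 3.87, 3.58 and 3.84 in the knockdown, 3.58, 3.58 and 3.37 in the knockout, and 3.37, 3.58 and 3.44 in wild type. RMA gave it the same value on several arrays, and knockdown 5 shared its value with 1 wild-type array, so the groups touched. Means of 3.76 ± 0.16 in the knockdown, 3.51 ± 0.12 in the knockout and 3.46 ± 0.11 in wild type gave a difference of knockdown and wild type of 0.30 (SE 0.12, 95% interval 0.02 to 0.57), with a limma p of 0.036 before adjustment and 0.876 after it. Knockdown and knockout differed by 0.26 (95% interval -0.02 to 0.53), and knockout and wild type by 0.04.

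Cldn8, which in the kidney limits the passage of ions between the cells of the collecting duct, had the narrowest range of levels. It read 3.06, 2.90 and 3.12 in the knockdown, 2.80, 2.85 and 2.96 in the knockout, and 2.89, 2.97 and 2.89 in wild type. The groups overlapped, and the differences were 0.11 for knockdown and wild type, -0.05 for knockout and wild type and 0.16 for knockdown and knockout (SE 0.10 each). Cldn6, a claudin of embryonic epithelia, read 3.79, 3.94 and 3.60 in the knockdown, 3.81, 3.71 and 3.75 in the knockout, and 3.47, 3.85 and 3.84 in wild type. Its differences of 0.06, 0.04 and 0.02 in the same order were all below their SE of 0.14. Cldn23 read 4.65, 4.61 and 4.65 in the knockdown, 4.42, 4.49 and 4.63 in the knockout, and 4.63, 4.74 and 4.80 in wild type. The knockdown arrays were nearly equal, and the difference of knockout and wild type of -0.21 (SE 0.10, limma p of 0.067 before adjustment) was the largest of this gene, with both groups meeting near 4.63. This difference was -0.17 without knockout 7.

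Cldn5 is the claudin of endothelial cells and of the blood-brain barrier. It read 3.91, 4.04 and 3.98 in the knockdown, 4.13, 3.91 and 3.59 in the knockout, and 3.98, 3.87 and 4.12 in wild type. The knockout arrays spanned the values of both other groups, and the differences were -0.01, -0.11 and 0.10 for knockdown and wild type, knockout and wild type, and knockdown and knockout (SE 0.15 each). All 18 endothelial markers fixed for comparison were measured, and 0 of 18 passed the test in any comparison. Their summed linear level was 277 to 288 in the knockdown, 279 to 285 in the knockout and 285 to 305 in wild type. The endothelial adhesion molecule Pecam1 read 3.74 to 3.95 in the knockdown, 4.01 to 4.37 in the knockout and 3.89 to 4.07 in wild type. The values come without detection calls, so whether Cldn5 or any other member was above background is unknown.

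**Figure D2:**
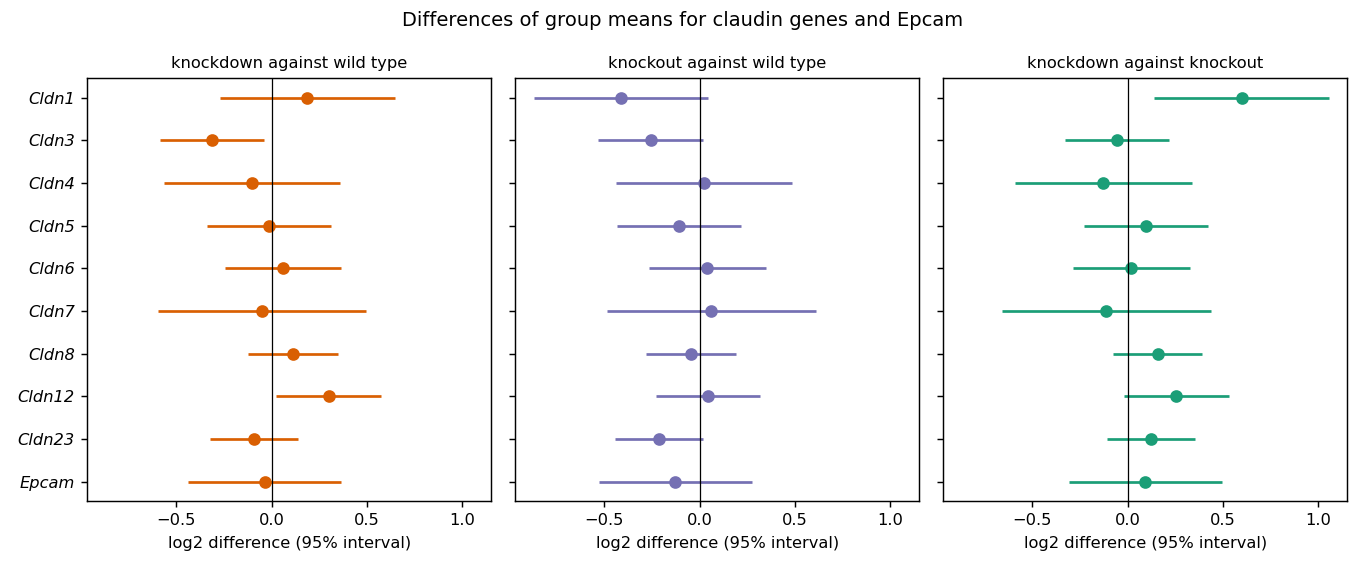
Difference of group means on the log2 scale (horizontal axis) for the 9 claudin genes and Epcam in 3 panels, 1 for each comparison of groups. Points are limma estimates and lines their 95% intervals before any adjustment; the intervals that leave out 0 are those of Cldn3 (-0.59 to -0.04) and Cldn12 (0.02 to 0.57) in the first comparison and of Cldn1 (0.14 to 1.06) in the third.

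The order of the group means differed between the members. Given from the highest mean down, it was knockdown, wild type, knockout for Cldn1 and Cldn8, knockdown, knockout, wild type for Cldn6 and Cldn12, and knockout, wild type, knockdown for Cldn4 and Cldn7. It was wild type, knockdown, knockout for Cldn5, Cldn23 and Epcam, and wild type, knockout, knockdown for Cldn3. Neighbours in these orders overlapped on their arrays for all 10 genes. The pairs of groups that did not overlap were the knockdown and wild type of Cldn3 and the knockdown and knockout of Cldn1.

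Single arrays set much of the spread. For 8 of the 10 members the lowest value lay on wild type 1 or knockout 7, in 1 of them tied with another array. Wild type 1 held the lowest value of Cldn4, Cldn6, Cldn7 and Cldn12, knockout 7 that of Cldn1, Cldn8, Cldn23 and Epcam, and wild type 2 the highest of Cldn4, Cldn7 and Epcam. Averaged over the members, the deviation from each gene's mean was -0.17 on wild type 1 and -0.13 on knockout 7, and 0.16 on wild type 2. Without wild type 1, 0 of 10 members had a higher mean in the knockout than in wild type and the median difference was -0.23, where 50.2% of all genes had a lower mean. In knockdown against wild type 3 of 10 then had a higher mean, with a median of -0.10, where 48.4% of all genes were lower, and 7 of 10 were higher without wild type 2, with a median of 0.12. In knockout against wild type, leaving out wild type 2 gave higher means for Cldn4 (0.19), Cldn6 (0.11), Cldn7 (0.31), Cldn12 and Epcam (0.02). Cldn1, Cldn3, Cldn5, Cldn8 and Cldn23 had lower means in that fit. With both wild type 1 and knockout 7 left out, 0 of 10 were higher in the knockout than in wild type, with a median of -0.19. No member passed the threshold in any of these fits.

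Across the 9 arrays, 45 pairs of members were correlated, each with an exact two-sided permutation test over 362880 rearrangements. The arrays share their groups and their normalization, and 27 of the 45 pairs had a Pearson r above 0. After Benjamini-Hochberg adjustment 0 pairs passed 0.05 by Pearson and 1 by Spearman. That pair was Cldn1 and Cldn8, with r = 0.81 (exact p = 0.00774, adjusted 0.138) and rho = 0.93 (exact p = 0.00075, adjusted 0.0337). Its r was 0.77 without knockout 7 and knockdown 4, the arrays farthest from the median of Cldn1, 0.72 on deviations from the group means, and 0.44 after a repeated quantile normalization. Cldn8 spanned only 0.33 over the 9 arrays, from 2.80 to 3.12, and whether it was above background is unknown. Cldn4 and Cldn7 had r = 0.87 (exact p = 0.00312, adjusted 0.138) and rho = 0.80 (adjusted 0.156). Their r was 0.49 without wild type 1 and wild type 2, the arrays farthest from the median of Cldn4. It was 0.73 without wild type 1 and knockout 7, and 0.87 on deviations from the group means.

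Cldn6 and Cldn7 had r = 0.82 (exact p = 0.00922, adjusted 0.138) and rho = 0.83 (adjusted 0.124). Their r was 0.35 without wild type 1 and knockdown 6, the arrays farthest from the median of Cldn6. It was 0.57 without wild type 1 and knockout 7, and 0.85 on deviations from the group means. Cldn3 and Cldn12 ran against each other, with r = -0.78 (exact p = 0.0153, adjusted 0.173) and rho = -0.86 (adjusted 0.0952). Here r was -0.75 without wild type 1 and wild type 3 and -0.85 on deviations from the group means. The binding partners Cldn7 and Epcam had r = 0.57 (exact p = 0.101, adjusted 0.408) and rho = 0.32 (exact p = 0.41, adjusted 0.930). Their r was -0.36 without wild type 1 and wild type 2, the lowest and highest arrays of Cldn7. It was 0.49 without wild type 1 and knockout 7, 0.63 on deviations from the group means and -0.05 after a repeated quantile normalization. Cldn3 and Cldn4, the markers of 1 lineage, had r = 0.13 (exact p = 0.732, adjusted 0.973) and rho = 0.42 (exact p = 0.27, adjusted 0.758). Their r was 0.90 without wild type 1 and wild type 3, the arrays farthest from the median of Cldn3. It was 0.76 without wild type 1 and knockout 7, 0.07 on deviations from the group means and 0.28 after a repeated quantile normalization.

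**Figure D3:**
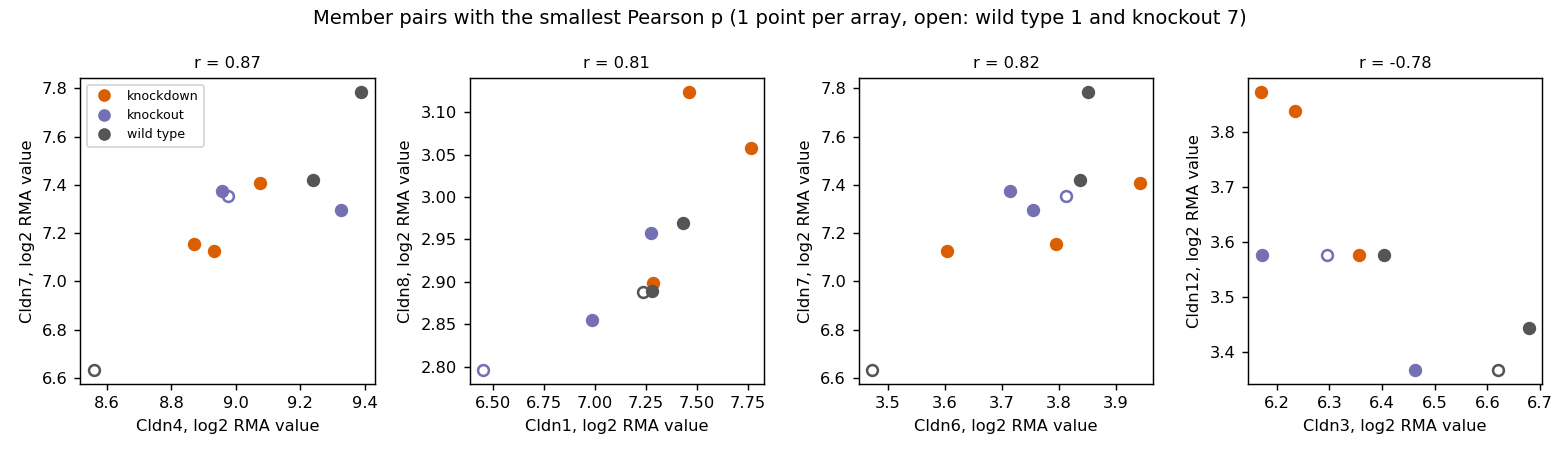
Log2 RMA values of both genes of the 4 member pairs with the smallest Pearson p, 1 point per array, coloured by knockdown, knockout and wild type, with wild type 1 and knockout 7 as open circles. For Cldn4 and Cldn7 (r = 0.87) wild type 1 lies at the lower left and wild type 2 at the upper right. Cldn1 and Cldn8 (r = 0.81) rise together and Cldn3 and Cldn12 (r = -0.78) run against each other over most arrays.

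The genes whose levels ran most like those of Cldn3, Cldn4 and Epcam were taken by Pearson r over the 9 arrays, among the 9796 genes with a mean above the median of all genes. For Cldn3 they were Nppc (r = 0.85), Ercc1 (0.85), H2-K2 (0.85), Prrc1 (0.85) and S100a1 (0.84). For Cldn4 they were H2-T-ps (0.95), Sephs2 (0.94), Gsdma3 (0.94), Syngr2 (0.94) and Thbs1 (0.93), and for Epcam Thap6 (0.98), Mgat5 (0.97), Cab39l (0.97), Mal2 (0.97) and Gdap2 (0.97). No member was among them. With wild type 1 and knockout 7 left out, r of these genes was 0.78 to 0.86 for Cldn3, 0.87 to 0.93 for Cldn4 and 0.91 to 0.96 for Epcam. The arrays share depth of labelling and normalization, and the highest of 9796 correlations are high by their choice, so they are given as a description.

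Cldn3 and Cldn4 lie next to each other in the RefSeq gene order, in the row Tmem270, Cldn13, Mettl27, Cldn4, Cldn3, Abhd11, Stx1a and Bud23. All 8 genes were measured, and 0 of 8 passed the test in any comparison. Cldn13, another claudin of this cluster, differed most among them. It read 6.80, 7.31 and 7.39 in the knockdown, 8.16, 8.28 and 7.99 in the knockout, and 6.95, 8.22 and 7.79 in wild type. The knockdown arrays lay below all knockout arrays, and wild type 1 lay among them. Knockdown and knockout differed by -0.98 (SE 0.29, 95% interval -1.62 to -0.33), with a limma p of 0.0075 before adjustment and 0.555 after it, while the knockdown differed from wild type by -0.48 and the knockout by 0.49, values that were -0.84 and 0.14 without wild type 1. The genes on either side of Cldn4 and Cldn3 differed less. Mettl27 differed by -0.02 and Abhd11 by 0.09 in knockdown against wild type, and the syntaxin gene Stx1a by -0.14. These were -0.05, -0.08 and -0.05 when wild type 1 was left out.

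**Figure D4:**
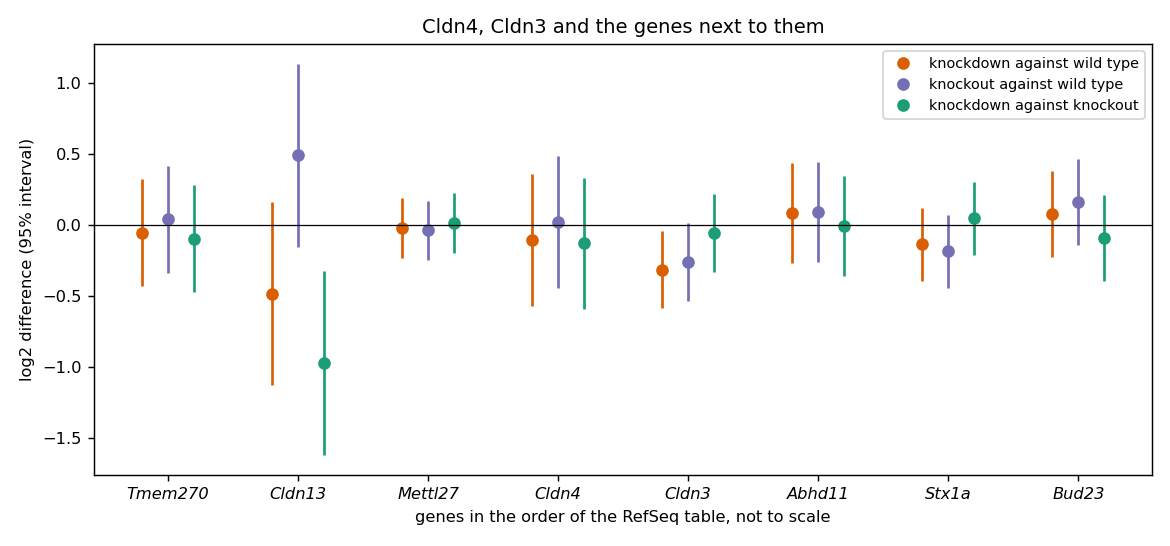
Difference of group means on the log2 scale (vertical axis) for Cldn4, Cldn3 and the genes beside them in the order of the RefSeq table, not to scale. Points are limma estimates and lines their 95% intervals before adjustment; Cldn13 at -0.98 in knockdown against knockout stands out, and the genes other than Cldn3 and Cldn13 lie between -0.18 (Stx1a) and 0.16 (Bud23), both in knockout against wild type.

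Beyond the members, 14 further claudin genes were measured (Cldn2, Cldn9, Cldn10, Cldn11, Cldn13 to Cldn20, Cldn34b3 and Cldn34b4). None of the 14 passed the test in any comparison, and 4 of 14 had a higher mean in knockdown against wild type, 7 of 14 in knockout against wild type and 5 of 14 between knockdown and knockout. Their median differences were -0.04, 0.01 and -0.02, and 52.4%, 51.8% and 50.1% of all genes had a higher mean. The first of these counts was 8 of 14 without wild type 1, and the second was 3 of 14 without knockout 7. Cldn2, a claudin that forms channels for sodium and water, read 3.80, 3.76 and 3.86 in the knockdown, 3.85, 3.74 and 3.88 in the knockout, and 3.56, 3.74 and 3.51 in wild type. Its lowest knockdown and knockout arrays lay just above the highest wild-type array, and the differences from wild type were 0.20 for the knockdown and 0.22 for the knockout (SE 0.10, limma adjusted p of 0.983 and 0.9997). Cldn16, known from the reabsorption of magnesium in the kidney, differed by -0.39 (SE 0.18) between knockout and wild type, and Cldn11, a claudin of myelin and of the testis, by -0.24 (SE 0.15) between knockdown and knockout. The Cldn16 value was -0.17 without wild type 1, and the Cldn11 value was -0.11 without knockout 7.

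Proteins that share the tight junction with the claudins gave the same count. Of 31 tight junction partners 28 were measured, and 0 of 28 passed the test in any comparison. Higher means were found for 18 of 28 in knockdown against wild type and 14 of 28 in knockout against wild type. Between knockdown and knockout 19 of 28 were higher. The medians were 0.04, -0.01 and 0.07, and 52.4%, 51.8% and 50.1% of all genes had a higher mean. In knockout against wild type 7 of 28 were higher without wild type 1 and 9 of 28 without knockout 9. Ocln, the membrane protein occludin, read 5.93, 5.96 and 5.69 in the knockdown, 5.45, 5.79 and 6.04 in the knockout, and 5.68, 6.51 and 6.39 in wild type. Wild type 2 and 3 were above all other arrays and wild type 1 was not, and the differences from wild type were -0.34 for the knockdown and -0.43 for the knockout (SE 0.23). They were -0.60 and -0.69 when wild type 1 was left out. The scaffold gene Tjp1 differed by 0.08 in the knockdown and -0.06 in the knockout, and Tjp3 by 0.14 and 0.07. F11r, the junctional adhesion molecule A, differed by 0.16 and 0.05 (SE 0.22). The directions of F11r turned when wild type 1 was left out, to -0.15 in the knockdown and -0.25 in the knockout, and Tjp1 in the knockdown was at -0.03.

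Cxadr, an adhesion molecule of the tight junction that also serves as the receptor of coxsackieviruses and adenoviruses, was the partner with the smallest p between knockdown and knockout. It read 6.55, 6.06 and 6.53 in the knockdown, 5.77, 5.65 and 5.95 in the knockout, and 6.38, 6.06 and 6.06 in wild type. The knockout arrays lay below all arrays of both other groups. Knockdown and knockout differed by 0.59 (SE 0.16, limma adjusted p of 0.493), and knockout and wild type by -0.38 (limma adjusted p of 0.9997). Amotl2, which links junctions to cell polarity, differed by 0.43 (SE 0.17) between knockdown and wild type, and Ybx3, a transcription factor that binds Tjp1, by 0.23 (SE 0.12). Neither passed the test.

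Adherens junctions and desmosomes, the other contacts of epithelial cells, stood higher in the knockdown on most of their genes, without a call. All 22 genes were measured and 0 of 22 passed the test in any comparison, with a smallest adjusted p of 0.532 in knockdown against wild type and 0.277 in knockdown against knockout. In knockdown against wild type 20 of 22 had a higher mean (52.4% of all genes), with a median of 0.21. Without overlap 9 of 22 were higher, where 4.80% of all genes were. In knockdown against knockout 21 of 22 had a higher mean (50.1% of all genes), with a median of 0.29. Without overlap 12 of 22 were higher, where 5.38% of all genes were. In knockout against wild type 6 of 22 had a higher mean (51.8% of all genes), with a median of -0.07. This count was 3 without wild type 1 or knockout 9, 12 without wild type 2 and 11 without knockout 7. The range of the 22 differences was -0.26 to 0.57 in knockdown against wild type and -0.28 to 0.65 in knockdown against knockout. Without wild type 1, 16 of 22 were higher in the knockdown than in wild type. The cornified markers given beside Cldn1 averaged higher in the same arrays, and their part in these values was not tested.

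Dsg3, a cadherin of desmosomes and an autoantigen of pemphigus, read 4.93, 4.85 and 4.92 in the knockdown, 4.27, 4.18 and 4.51 in the knockout, and 3.98, 4.55 and 4.47 in wild type. The knockdown arrays lay above all others, and the difference from wild type was 0.57 (SE 0.16, limma adjusted p of 0.532). Nectin4, an adhesion molecule of adherens junctions, differed by 0.65 (SE 0.14, limma adjusted p of 0.277) between knockdown and knockout, and Afdn, which ties nectins to actin, by 0.49 (SE 0.13, limma adjusted p of 0.481). Dsc3, a further desmosomal cadherin, differed by -0.32 (SE 0.17) between knockout and wild type, and by -0.15 without knockout 7. Cdh1, the E-cadherin of epithelial cells, read 8.97, 8.76 and 8.86 in the knockdown, 8.49, 8.54 and 8.78 in the knockout, and 8.40, 8.86 and 8.78 in wild type, and the groups overlapped.

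Genes that act with Epcam were followed in the same way. The serine protease matriptase (St14) cleaves Epcam, and Spint1 and Spint2 encode its inhibitors. Of the 15 genes listed as Epcam partners or cleaving proteases all 15 were measured and 0 of 15 passed the test in any comparison. A higher mean was found for 11 of 15 in knockdown against wild type and 9 of 15 in knockout against wild type. Between knockdown and knockout 9 of 15 were higher. The medians were 0.09, 0.05 and 0.11, and 52.4%, 51.8% and 50.1% of all genes had a higher mean. Without wild type 1 the first 2 counts were 7 of 15 and 3 of 15.

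Spint1 read 8.57, 8.58 and 8.53 in the knockdown, 7.93, 8.08 and 8.35 in the knockout, and 8.24, 8.43 and 8.41 in wild type. It was highest on the knockdown arrays, with differences of 0.20 from wild type and 0.44 (SE 0.13, limma adjusted p of 0.530) from the knockout. Spint2 differed by 0.09 and St14 by 0.15 in knockdown against wild type, and without wild type 1 by -0.06 and 0.04. Tspan8, a tetraspanin found in complexes with Epcam, differed by 0.58 (SE 0.18, limma adjusted p of 0.579) between knockdown and wild type, and its knockdown arrays of 7.28, 7.23 and 6.99 lay above the wild-type arrays of 6.17, 6.78 and 6.81. The value was 0.37 without wild type 1.

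**Figure D5:**
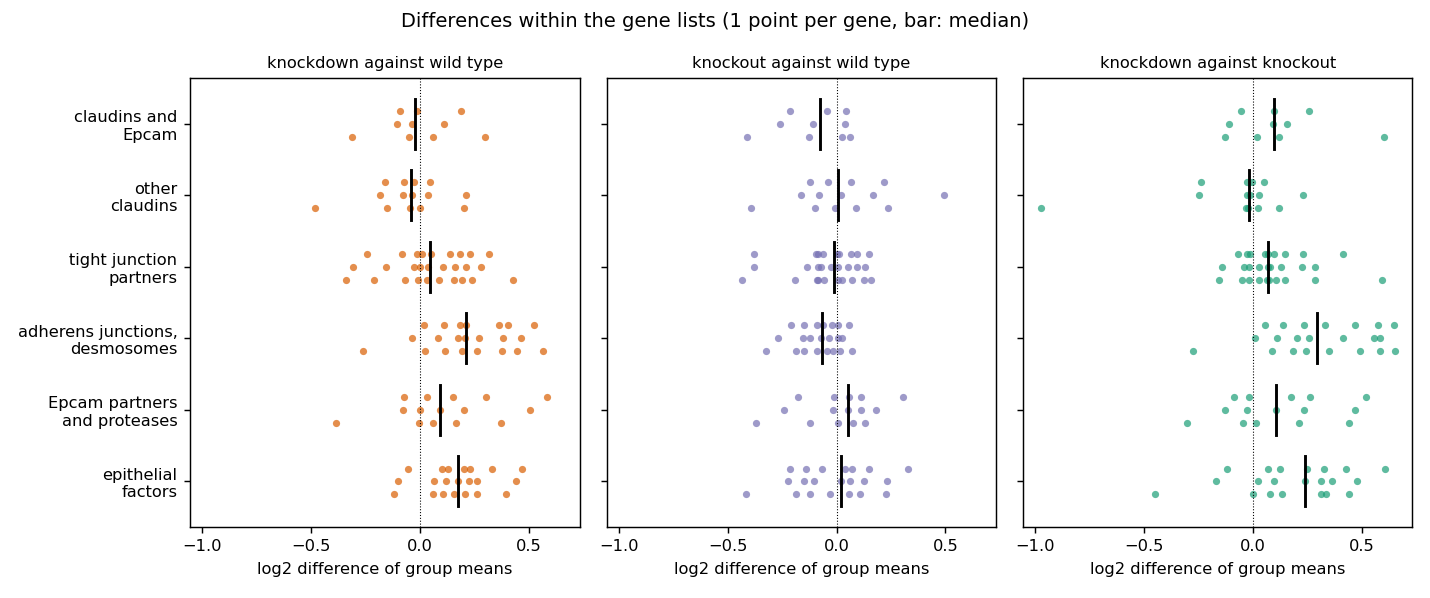
Difference of group means on the log2 scale (horizontal axis) of each gene of the claudin and Epcam set, the other claudins and 4 further lists, with 1 panel for each comparison of groups. Each point is 1 gene and the bar is the list's median; the bar of the claudin and Epcam set lies at -0.02, -0.08 and 0.09, and that of adherens junctions and desmosomes at 0.21, -0.07 and 0.29.

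Transcription factors that set epithelial genes were measured for all 21 on the list, and 0 of 21 passed the test in any comparison. Of these, 18 of 21 had a higher mean in knockdown against wild type and 11 of 21 in knockout against wild type. Between knockdown and knockout 18 of 21 were higher. The medians were 0.18, 0.02 and 0.24, and 52.4%, 51.8% and 50.1% of all genes had a higher mean. Grhl1, a grainyhead factor of epidermal junction genes, differed by 0.47 (SE 0.11, limma adjusted p of 0.359) between knockdown and wild type. Between knockdown and knockout it differed by 0.61 (SE 0.11, limma adjusted p of 0.168). Its knockdown arrays lay above the others in both, where 4.80% and 5.38% of all genes were higher without overlap. Trp63, the master factor of stratified epithelium, differed by 0.40 (SE 0.14, limma adjusted p of 0.712) between knockdown and wild type. Ovol1, an epithelial zinc finger factor, differed by -0.41 between knockout and wild type, and Zeb1, a repressor that binds E-boxes and lowers Cdh1, by 0.33, with neither past the threshold. The Zeb1 value was 0.50 without knockout 7. Klf5 differed by 0.44 between knockdown and knockout.

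Markers of other cells and stages gave few calls. In pan-epithelial markers, Epcam among them, 0 of 7 passed in any comparison, with medians of -0.04 in knockdown against wild type, -0.12 in knockout against wild type and 0.07 between knockdown and knockout. For immature medullary cells 7 of 8 markers were measured and 0 passed, and their summed level was 1229 to 1348 in the knockdown, 1137 to 1329 in the knockout and 968 to 1283 in wild type. For cortical epithelium 7 of 9 were measured and 0 passed, with summed levels of 358 to 420, 364 to 504 and 452 to 576 in knockdown, knockout and wild type. Dendritic cell and macrophage markers were all 18 measured and 0 passed, at 646 to 748 in the knockdown, 749 to 928 in the knockout and 765 to 868 in wild type. None of 10 fibroblast and pericyte markers passed, with medians of -0.14, 0.02 and -0.09 in the 3 comparisons, and none of 7 B cell markers, whose sums of 120 to 139, 120 to 131 and 125 to 137 overlapped. Among tuft-like markers 7 of 8 were measured and 0 passed, with sums of 531 to 559 in the knockdown, 366 to 447 in the knockout and 385 to 505 in wild type. RMA values have no zero, so absence of a marker cannot be read from them.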

How the data were processed

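Total RNA of 9 samples was labelled with biotin and hybridised to 1 array each, and groups were taken from the sample titles. The deposited log2 values were made with RMA by the authors, per the submitters' processing notes. The software version is not given in the sources used here. Another deposited copy of the log2 values was identical for all 35552 probe sets on every array. The authors also deposited linear intensity values of the same RMA output, which were not tested, and a q-value column, treated as a score and not used.

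Of 35552 probe sets, 21536 have 1 gene symbol and 14016 none. The RefSeq table of GRCm38.p6 updated the symbols (15192 matched an accession, 3746 a symbol, 1262 a synonym, and 1336 kept the file's name). Each of the 19593 genes is its probe set with the highest mean, with no filter on level. Group means were fitted over all 9 arrays in limma 3.58.1 under R 4.3.3, a step checked on simulated data. P-values are two-sided and adjusted by Benjamini-Hochberg over all genes, with a threshold of 0.05, and they measure the spread between these samples, which may in part be technical. With 3 arrays a group, an exact permutation test cannot go below p = 0.1. The number of arrays limits the precision. For 525 genes the 3 knockdown arrays hold equal values.

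The members and gene lists were chosen with earlier results of these data known. All members, Ciita, H2-Aa and Aire are named, and from each list those past the threshold or otherwise up to 2 with the smallest p. Ocln, Tjp1, Tjp3, F11r, Cdh1, Spint1, Spint2 and St14 are named as examples listed in that rule, whatever their p, as are the 5 genes most like each of Cldn3, Cldn4 and Epcam and the neighbours of Cldn3 and Cldn4. Differences of means below 1e-09 count as 0. Summed linear levels are sums of 2 to the power of the log2 values. List members without a value are not analysed here, and some genes that the rule names are not reported here, though the counts include them.

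As alternatives, quantile normalization was repeated, arrays were centred on their medians, dim genes were filtered at 2 levels, the variance was given an intensity trend (plain or robust), arrays were weighted, each pair of groups was fitted alone, probe sets were chosen otherwise, the array's interquartile range was made a covariate, and single arrays, or wild type 1 together with knockout 7, were left out.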

Additional observations from a re-analysis of the deposited data

How the results depend on the processing

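No member passed the threshold in any of the 63 alternative fits of the 3 comparisons. The smallest limma adjusted p was 0.0722, for Cldn3 in knockdown against wild type with array weights, and for Cldn1 between knockdown and knockout it was 0.137, with the interquartile range as a covariate. Of 615 differences of single members 579 kept their direction and 36 reversed. With array weights the reversed values were -0.092 for Cldn6 in knockdown against wild type, -0.11 for Cldn4, -0.088 for Cldn6 and -0.14 for Cldn7 in knockout against wild type, and -0.00445 for Cldn6 between knockdown and knockout. The interquartile range as a covariate gave 0.018 for Cldn5 in knockdown against wild type and -0.031 for Cldn4 in knockout against wild type, and a repeated quantile normalization gave -0.053 for Cldn4 in knockout against wild type. Without both wild type 1 and knockout 7, the values were -0.064 for Cldn6 in knockdown against wild type, -0.17 for Cldn4, -0.11 for Cldn6, -0.27 for Cldn7 and -0.038 for Cldn12 in knockout against wild type, and -0.033 for Epcam between knockdown and knockout. Leaving out 1 array at a time gave, in knockdown against wild type, -0.36 to 0.059 for Cldn4, -0.073 to 0.052 for Cldn5, -0.064 to 0.15 for Cldn6, -0.37 to 0.20 for Cldn7 and -0.20 to 0.11 for Epcam. In knockout against wild type the ranges were -0.23 to 0.19 for Cldn4, -0.24 to 0.034 for Cldn5, -0.084 to 0.11 for Cldn6, -0.26 to 0.31 for Cldn7, -0.0036 to 0.11 for Cldn12 and -0.30 to 0.016 for Epcam. Between knockdown and knockout they were -0.12 to 0.020 for Cldn3, -0.047 to 0.22 for Cldn5, -0.062 to 0.11 for Cldn6 and -0.033 to 0.22 for Epcam. The cause was not tested. Over all genes 13 passed in knockdown against wild type, 9 in knockout against wild type and 8 between knockdown and knockout. In the same order array weights gave 411, 71 and 310, the interquartile range as a covariate 144, 30 and 155, a repeated quantile normalization 47, 12 and 37, and the fit without wild type 1 and knockout 7 51, 11 and 66. Genes above the median level gave 24, 9 and 9, those above the lower quartile 22, 9 and 8, the compared groups alone 2, 4 and 9, and all probe sets 9, 6 and 18. Leaving out 1 array gave 5 to 48, 6 to 13 and 5 to 38. With array weights 2 of 22 genes of adherens junctions and desmosomes passed in knockdown against wild type, where 411 of all 19593 genes did. Between knockdown and knockout 3 of these 22 and 1 of the 14 other claudins passed, where 310 of all 19593 genes did. No paired analysis was possible because the replicate numbers 1 to 9 are not shared between groups.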
